A study of Arabidopsis thaliana with 27 samples.

Results

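The B-box genes BBX18 to BBX25, BBX28 and BBX29 of Arabidopsis thaliana were followed by RNA-seq through 3 organs of msh1-derived epi-lines and wild type (WT). The 10 genes, out of 33977 counted in each plant, were chosen by gene identifier with earlier results from these same libraries known, among them the differences between Epi 8 and WT in floral stem. The values given for those differences, and for each comparison that uses the Epi 8 stem plants, are therefore a description of the genes chosen. BBX26 and BBX27 were not among the 10, and they stand with the other B-box genes of the genome, 22 in number, as a comparison list. There were 27 plants with 1 library each, 3 plants in each of 9 groups. Floral stems of Epi 8, Epi 24 and WT came from plants of 6 weeks, and roots of the same lines came from seedlings grown for 10 days on 0.5 strength MS medium. Rosette leaves of Epi 8, Epi 10 and WT were taken at bolting according to the sample labels, while the methods text puts leaf plants at 4 weeks and does not name Epi 10 leaf. Stem and leaf plants grew on a peat mix with 12 h of light per day at 22 °C. All lines are in the Col-0 background. The epi-lines are F3 families that descend from a WT female crossed with a T-DNA mutant of MSH1, a nuclear gene whose protein acts in plastids and mitochondria, and they carry the functional MSH1 allele. Epi 8 and Epi 24 derive from the same cross and Epi 10 from another, so each line is a single family and its values need not hold for other families. MSH1 itself was counted in every plant, at 2.18 to 5.5 CPM in Epi 8 stems, 2.06 to 3.6 CPM in Epi 24 stems and 2.71 to 4.19 CPM in WT stems.

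B-box proteins are zinc-finger transcription regulators that adjust how strongly a seedling responds to light. Most act through HY5, a bZIP factor that switches on genes for pigments, chloroplasts and short hypocotyls, and many are themselves marked for destruction by the COP1 ubiquitin ligase in the dark. BBX20, BBX21, BBX22 and BBX23 promote light-dependent development, BBX18, BBX19, BBX24, BBX25 and BBX28 hold it back, and transcripts of many B-box genes cycle over the day. BBX18 to BBX25 carry tandem B-boxes, whereas BBX28 and BBX29 lack the second.

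The promoters of the 10 genes were read for 4 short motifs that light, clock or cold-response factors bind. Transcripts of many B-box genes respond to light and to the clock. The windows ran from 250 bases before the annotated transcript start to 50 bases after it, on the TAIR10.1 genome with the RefSeq annotation, and both strands were searched. The G-box CACGTG, a core recognised by HY5 and PIF factors, was found in 1 of 10 members and in 7.68% of 27438 promoters. The evening element AAAATATCT stood in 1 member and 2.82% of promoters, the CCA1 binding site AAAAATCT in 2 members and 7.88%, and the DRE core CCGAC, bound by cold-response factors, in 1 member and 15.1%. None of the motifs was found in the windows of BBX18, BBX19, BBX20, BBX21, BBX23 or BBX29. The stretches with a match are shown on the strand of the gene, 5′ to 3′, with the matched letters in capitals.
BBX22, chr1:29566883-29566912, plus strand, CCA1 site on the other strand followed directly by the G-box, 34 to 47 bases after the start: gacacttgtatttAGATTTTTCACGTGtct
BBX24, chr1:1830016-1830045, minus strand, evening element 52 to 44 bases before the start: gaatataataAAAATATCTaaaggtaggag
BBX25, chr2:13381661-13381690, plus strand, DRE core 94 to 90 bases before the start: aaaacatttcagCCGACgaaattgttgtgc
BBX28, chr4:13675430-13675459, plus strand, CCA1 site 96 to 89 bases before the start: attatccaaacAAAAATCTcaaataaaggt
BBX28, chr4:13675479-13675508, plus strand, CCA1 site on the other strand 47 to 40 bases before the start: ctaaagcaaaaAGATTTTTaagttgaacca
A match of letters is not evidence of binding in these plants.

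Depth was 48098795 to 90808615 counts per leaf library, 18524351 to 20041205 per root library and 18465252 to 21219383 per stem library. Levels are given as CPM, the counts of a gene relative to its library size with TMM factors from all 27 libraries, and as RPKM, CPM per kilobase of annotated exon, where genes are compared with each other. Differences are log2 fold changes (log2FC) from edgeR's quasi-likelihood test, and a gene was called at a Benjamini-Hochberg FDR under 0.05 across every gene tested together with an absolute log2FC of 0.5 or more. Root markers were at 0 in every floral stem plant, and leaf markers summed to 99.4 to 237 CPM in roots against at least 16900 CPM in leaves. Floral stems carried the leaf markers too, at 30700 to 34800 CPM in WT stems against 18700 to 23000 CPM in WT leaves. The leaf markers therefore set roots apart from both other organs but did not set leaf apart from stem. Flower markers summed to at most 3.42 CPM in any stem plant. Among stem plants of a group, Epi 8 plant 1 and WT plant 3 lay farthest from the others. Chi-square over degrees of freedom between the counts of Epi 8 plants was 77.29 and 81.4 for the pairs with plant 1 and 24.93 for the other pair, and in WT it was 106.22 and 77.42 for the pairs with plant 3 and 37.31 for the other. The stem values of Epi 8 are therefore also given without these plants. Reads outside genes made up 0.681 to 0.995% in leaf libraries, 3.93 to 6.17% in root libraries and 4.5 to 5.94% in stem libraries. Since organs also differed in age, growth medium, library depth and this share, organ and these conditions cannot be told apart. In bulk samples fewer cells of a type and less RNA per cell cannot be told apart either.

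In WT, the makeup of the B-box transcripts differed between organs. BBX24 (AT1G06040, also named STO), which dampens the light response, led in leaf and in floral stem, whereas BBX21 (AT1G75540), an activator of HY5, led in root. BBX24 reached 150 ± 14.4 RPKM in WT leaf, 52.0 ± 15.4 RPKM in WT root and 177 ± 31.1 RPKM in WT stem (SD, n = 3). BBX21 reached 20.1 ± 1.38 RPKM in WT leaf, 93.8 ± 5.65 RPKM in WT root and 18.6 ± 4.97 RPKM in WT stem (SD, n = 3). Of the summed RPKM of the 10 genes, BBX24 held 71.8% in WT leaf, 26.1% in WT root and 61.6% in WT stem, while BBX21 held 9.64%, 48.1% and 6.39% in the same organs. The counts on BBX24 carry a caution, since AT1G06045 on the opposite strand shares 267 exonic bases with it and the strand setting of the counting is not given in the sources used here. BBX25 shares 48 and BBX20 4 exonic bases with an opposite-strand neighbour.

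**Figure D1:**
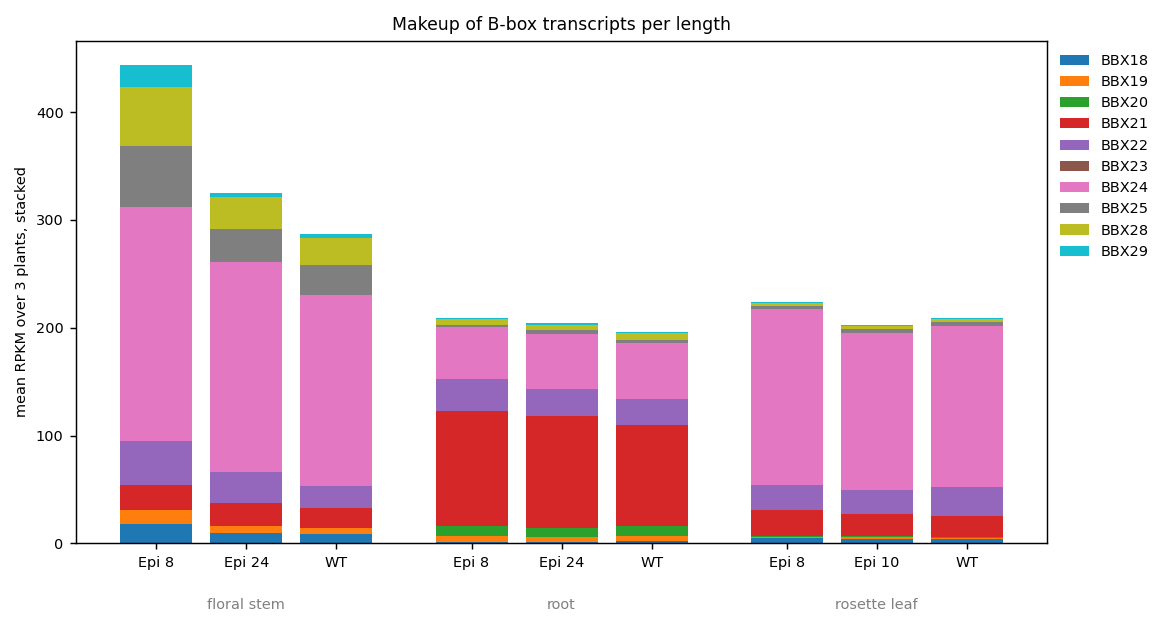
Mean RPKM of the 10 B-box genes over 3 plants, stacked, for each line and organ. BBX24 forms the largest block in floral stem and leaf and BBX21 the largest in root, and the stack of Epi 8 floral stem (444 RPKM) is the tallest.

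Among the promoters of light-dependent development, BBX20 (AT4G39070, also named BZS1) was a root transcript. Its WT plants gave 9.93, 14.6 and 15.5 CPM in root, 0.64, 0.834 and 0.493 CPM in leaf, and 0, 0.339 and 0 CPM in floral stem, where the 0.339 CPM were 6 reads. Roots lay above every leaf and stem plant. BBX20 rose in WT root relative to WT stem (log2FC 6.82, SE 0.771, FDR = 6.68e-08, fitted against those 6 reads) and relative to WT leaf (log2FC of leaf over root -4.34, SE 0.583, FDR = 6.26e-07). BBX22 (AT1G78600, also named LZF1) showed no called difference between WT organs. Its WT group means lay between 20.5 and 26.2 RPKM, and single WT plants between 15.3 RPKM in stem and 29.5 RPKM in leaf. BBX23 (AT4G10240) had 0 counts in all 18 root and stem plants and at most 2 counts in a leaf plant. It did not pass the filter on low counts and was not tested in the main fits. For each library with a count of 0, 3 counts are the limit that such a count allows.

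Of the genes that restrain the light response, BBX18, BBX25 and BBX28 were higher in WT stem than in both other WT organs. BBX25 (AT2G31380, also named STH) had 2.87 ± 0.337 RPKM in WT leaf, 2.78 ± 0.922 RPKM in WT root and 27.3 ± 1.62 RPKM in WT stem (SD, n = 3). BBX28 (AT4G27310), which hinders HY5 from binding DNA, had 3.35 ± 0.776, 7.02 ± 2.0 and 25.4 ± 10.0 RPKM in WT leaf, root and stem. BBX18 (AT2G21320) ordered the organs as stem, leaf and root at 8.50, 4.25 and 1.72 RPKM. BBX19 (AT4G38960), a repressor of flowering, had 0.933 RPKM in WT leaf against 4.89 RPKM in WT root and 5.89 RPKM in WT stem, with no called difference between root and stem (FDR = 0.475). BBX29 (AT5G54470) had 0.658 RPKM in WT leaf, 1.02 RPKM in WT root and 3.81 RPKM in WT stem.

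Between WT root and WT floral stem, 7 of 9 tested members were called in edgeR (2 higher in root, 5 lower), against 60.9% of all 22442 genes tested. BBX25 was lowest in root relative to stem (log2FC -3.29, SE 0.29, FDR = 1.14e-09), followed by BBX18 (-2.30), BBX29 (-1.89), BBX28 (-1.85) and BBX24 (-1.77), while BBX20 and BBX21 (2.34) were higher. BBX19 (-0.27) and BBX22 (0.21) were not called. Between WT leaf and WT stem, 6 of 9 were called (1 higher, 5 lower) against 60.3%. BBX25 (-3.25), BBX28 (-2.92), BBX19 (-2.66), BBX29 (-2.53) and BBX18 (-1.0, FDR = 0.0129) fell in leaf and BBX20 (2.48, FDR = 0.0116) rose, and BBX21 (0.12), BBX22 (0.35) and BBX24 (-0.24, FDR = 0.261) were not called. Without WT stem plant 1 the calls of BBX18 (log2FC -0.791, FDR = 0.0696) and BBX20 (1.896, FDR = 0.0604) were lost, and without WT stem plant 3 that of BBX20 was lost as well (1.948, FDR = 0.0544). Between WT leaf and WT root, 6 of 9 were called against 68.5%, with BBX24 (1.53) and BBX18 (1.3) higher in leaf and BBX20 (-4.34), BBX19 (-2.39), BBX21 (-2.22) and BBX28 (-1.07) lower and BBX22 (0.14), BBX25 (0.05) and BBX29 (-0.64) not called. A share of calls near that of all genes is no property of the B-box genes. Genes of the clock differed between organs as well. All 4 morning genes (CCA1, LHY, PRR9 and RVE8) were lower and all 6 evening genes (TOC1, GI, LUX, ELF4, PRR5 and FKF1) higher in WT leaf than in WT stem, each called. The hour of harvest is not given in the sources used here, and the part of the clock in the organ differences was not tested.

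**Figure D2:**
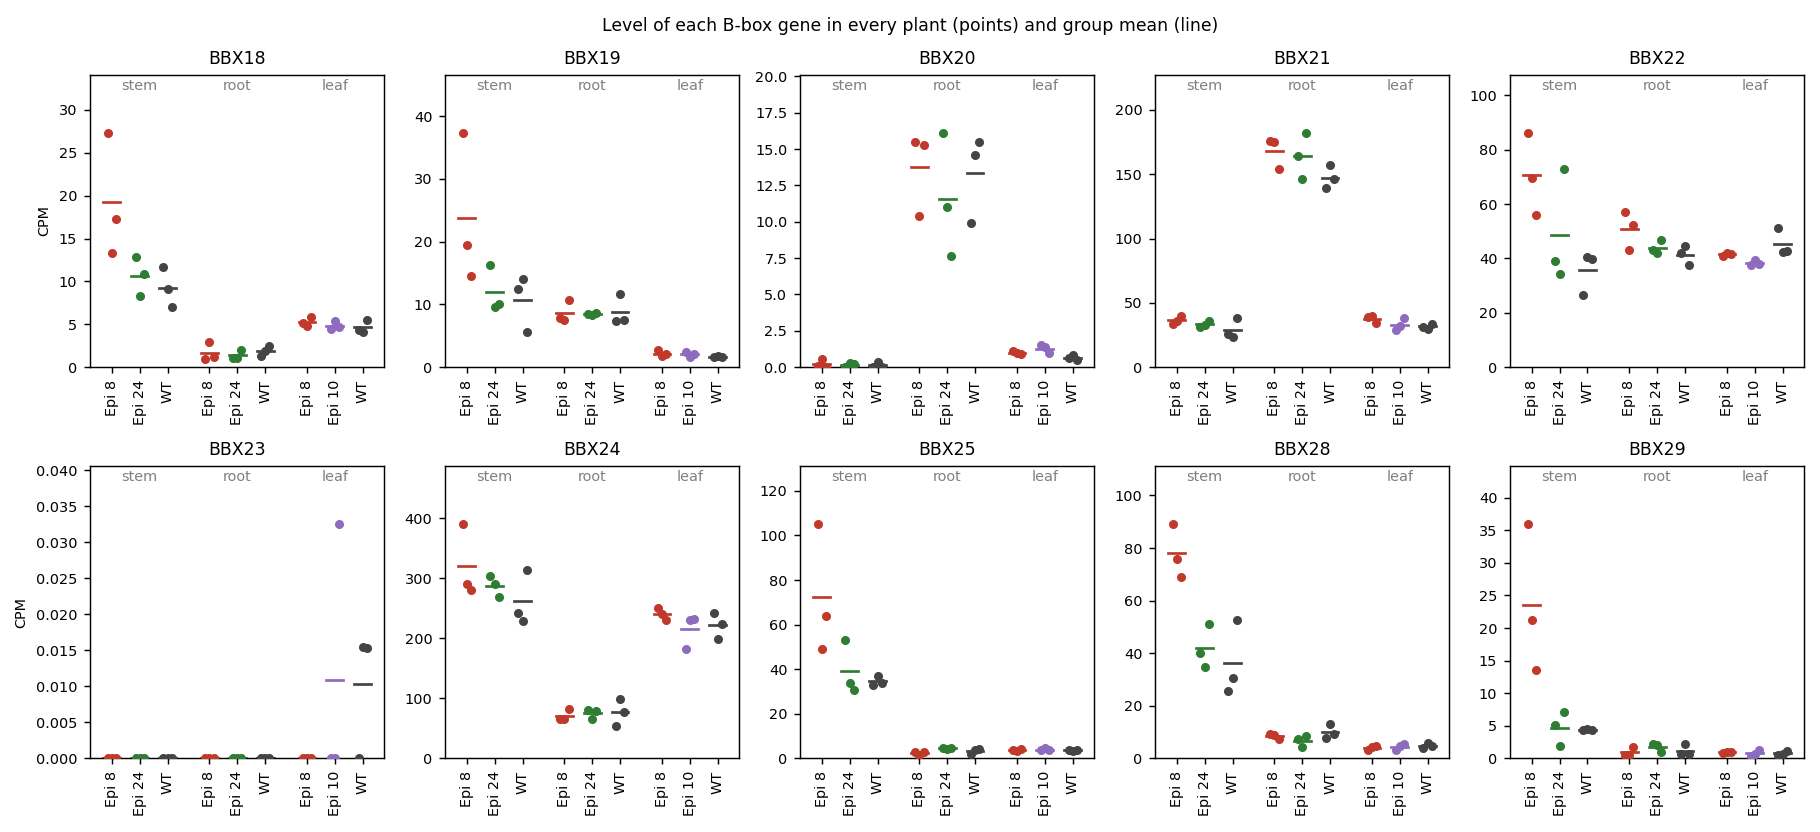
CPM of each of the 10 B-box genes in every plant (points) with the group mean (line), for the lines within each organ. BBX18, BBX19, BBX22, BBX25, BBX28 and BBX29 have all 3 Epi 8 stem plants above all 3 WT stem plants. Axes start at 0 and differ between genes.

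In floral stem of Epi 8, the gene with the widest gap to WT was BBX29, with 35.9, 21.2 and 13.5 CPM in Epi 8 plants, against 5.13, 1.96 and 7.09 CPM in Epi 24 plants and 4.36, 4.52 and 4.30 CPM in WT plants. Every Epi 8 plant stood above every plant of Epi 24 and WT. The log2FC of Epi 8 over WT was 2.44 (SE 0.468, 95% interval 1.39 to 3.48), a 5.41-fold ratio, with FDR = 0.142, so BBX29 was not called. BBX28 had 89.0, 75.7 and 69.1 CPM in Epi 8 stems, against 39.9, 34.8 and 51.3 CPM in Epi 24 stems and 25.8, 30.4 and 52.5 CPM in WT stems, again without overlap. Its log2FC over WT was 1.12 (SE 0.267, FDR = 0.212).

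BBX25 had 105, 48.9 and 64.0 CPM in Epi 8 stems and 33.1, 36.9 and 33.7 CPM in WT stems (log2FC 1.08, SE 0.285, FDR = 0.266), with Epi 24 at 53.0, 33.9 and 30.6 CPM overlapping both. BBX18 had 27.3, 13.3 and 17.3 CPM in Epi 8 stems against 11.7, 9.09 and 7.03 CPM in WT stems (log2FC 1.06, FDR = 0.298). BBX19 had 37.3, 19.4 and 14.6 CPM in Epi 8 stems against 12.4, 14 and 5.63 CPM in WT stems (log2FC 1.17, FDR = 0.437). The Epi 8 plants of all these genes lay above the WT plants. BBX22 had 86.1, 69.7 and 56.1 CPM in Epi 8 stems against 26.6, 40.6 and 39.7 CPM in WT stems (log2FC 1.01, FDR = 0.332), likewise without overlap.

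BBX24 (log2FC 0.31, FDR = 0.694) and BBX21 (0.34, FDR = 0.670) showed no such gap, and each had a WT plant above 1 or more Epi 8 plants. BBX20 and BBX23 did not pass the filter on low counts in stem. The 8 tested members all had a log2FC above 0, with a median of 1.07 beside 0.01 over all 19594 genes tested. None was called by edgeR in Epi 8 against WT, where 0.0255% of all genes were, and the same test without adjustment and with the same fold limit passed 6 members, against 7.23% of all genes. DESeq2 with its own adjustment called BBX25 (adjusted p = 0.0375), BBX28 (0.014) and BBX29 (9.88e-05), beside 1.92% of all genes. Groups that do not overlap were found for 6 members, all higher in Epi 8, beside 12.4% of all genes in either direction and 6.07% with every Epi 8 plant above. Plant 1 of Epi 8 was the highest plant of its group for 7 of the 9 members with counts. Without that plant the log2FC over WT was 1.998 for BBX29 (FDR = 0.171), 1.018 for BBX28 (FDR = 0.227), 0.72 for BBX25 (FDR = 0.294), 0.726 for BBX18, 0.687 for BBX19, 0.838 for BBX22, 0.392 for BBX21 and 0.142 for BBX24. Without WT plant 3 the log2FC was 2.417 for BBX29, 1.484 for BBX28 (FDR = 0.0964), 1.063 for BBX25, 0.896 for BBX18, 0.867 for BBX19, 1.087 for BBX22, 0.571 for BBX21 and 0.457 for BBX24. No member was called in edgeR without either plant.

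Summed over the 10 genes, the level was 444 ± 98.0 RPKM in Epi 8 stems, 325 ± 20.6 RPKM in Epi 24 stems and 287 ± 42.8 RPKM in WT stems (SD, n = 3). BBX24 held 49.1% of the sum in Epi 8 stems, 60.1% in Epi 24 stems and 61.6% in WT stems.

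**Figure D3:**
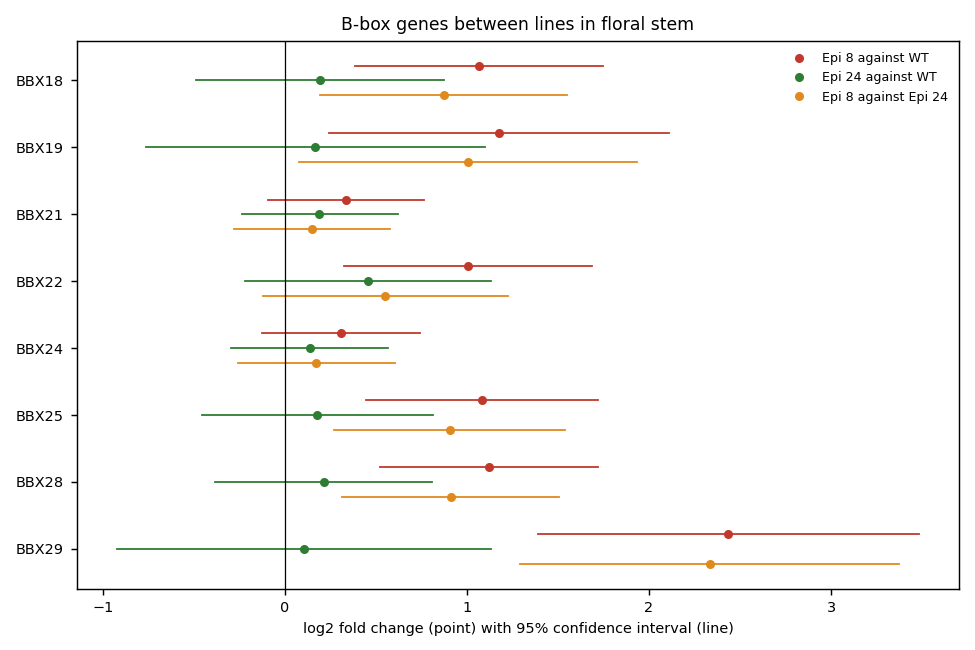
Log2 fold change of the 8 B-box genes tested in floral stem (points) with 95% confidence intervals (lines) for Epi 8 against WT, Epi 24 against WT and Epi 8 against Epi 24. All 8 points of Epi 8 against WT lie above 0, and every interval of Epi 24 against WT spans 0.

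Epi 24, from the same cross as Epi 8, showed smaller values. Against WT stems, its 8 tested members had log2FC values of 0.45 for BBX22, 0.21 for BBX28, 0.19 for BBX18 and for BBX21, 0.18 for BBX25, 0.17 for BBX19, 0.14 for BBX24 and 0.10 for BBX29, a median of 0.184. The value of BBX22 was 0.017 without Epi 24 plant 3, the plant with 72.9 CPM beside 39.0 and 34.2 CPM in the other Epi 24 stems. None was called in edgeR beside 0% of all genes (smallest member FDR 0.854), and 0 members had groups without overlap beside 9.9% of all genes. At an unadjusted p 0 members passed, and DESeq2 called 0 members. The shares of all genes for such counts of 0 are not given, here and below, so these counts are no property of the B-box genes. Compared directly with Epi 24, Epi 8 stems had a positive log2FC in all 8 members with a median of 0.888. BBX29 differed most (log2FC 2.33, SE 0.466, FDR = 0.144), followed by BBX19 (1.01, FDR = 0.281), BBX28 (0.91, FDR = 0.213), BBX25 (0.91, FDR = 0.223) and BBX18 (0.87, FDR = 0.242). BBX22 (0.55), BBX24 (0.17) and BBX21 (0.15) were smaller. Without Epi 8 plant 1 the values were 1.904 for BBX29, 0.81 for BBX28, 0.547 for BBX25, 0.541 for BBX18, 0.529 for BBX19, 0.394 for BBX22, 0.208 for BBX21 and 0.011 for BBX24. None of them was called in edgeR, beside 0.0153% of all genes. Without adjustment 5 members passed (14.2% of all genes), and DESeq2 called BBX29 alone (adjusted p = 0.000253; 3.56% of all genes). BBX18, BBX28 and BBX29 had Epi 8 plants above all Epi 24 plants, beside 26.2% of genes without overlap. The comparisons of Epi 8 with WT and with Epi 24 share the Epi 8 plants. The members were chosen with the first known, so the second is no independent support.

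In root none of the 9 tested members was called in any comparison. For Epi 8 against WT, 3 members had a log2FC above 0 and 6 below, and the values lay between -0.51 for BBX25 (1.61 to 2.97 CPM in Epi 8, 2.2 to 4.42 CPM in WT) and 0.27 for BBX22 (FDR = 0.894), with BBX29 at -0.34, BBX28 at -0.26, BBX18 at -0.17, BBX24 at -0.14, BBX19 at -0.05 and BBX20 at 0.02, beside 0% of all genes called by edgeR. No member had groups without overlap, beside 13.3% of all genes. At an unadjusted p with the fold limit no member passed, and DESeq2 called 0 members, both without the share of all genes. BBX21, the most abundant root member, had 154 to 176 CPM in Epi 8 and 139 to 157 CPM in WT (log2FC 0.17, FDR = 0.948). Epi 24 against WT ranged from -0.58 for BBX28 (SE 0.272, FDR = 0.723) to 0.54 for BBX29, with BBX18 at -0.46, BBX20 at -0.21, BBX19 at -0.07, BBX24 at -0.04, BBX22 at 0.08, BBX21 at 0.15 and BBX25 at 0.34, with 0% of genes called, 0 members called by DESeq2, and 10.9% of genes but no member without overlap. BBX28 was the 1 member with an unadjusted p under 0.05 (0.049) there, beside 3.7% of genes. Epi 8 against Epi 24 showed BBX25 at 2.96, 1.61 and 2.97 CPM in Epi 8 roots and 4.74, 4.07 and 4.65 CPM in Epi 24 roots. Every Epi 8 root lay below every Epi 24 root, a log2FC of -0.85 (SE 0.358, FDR = 0.402), where 17.0% of genes lacked overlap, 5.2% passed unadjusted, 0.0192% were called, and DESeq2 called 0 members. The other members stood at -0.89 for BBX29, -0.09 for BBX24, 0.02 for BBX19, 0.03 for BBX21, 0.19 for BBX22, 0.23 for BBX20, 0.29 for BBX18 and 0.32 for BBX28.

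In rosette leaf, none of the 9 tested members was called in edgeR or DESeq2 in any comparison. BBX20, at low levels, had 1.1, 0.977 and 0.870 CPM in Epi 8, 1.51, 1.35 and 0.974 CPM in Epi 10 and 0.64, 0.834 and 0.493 CPM in WT. All Epi 8 and Epi 10 plants were above all WT plants, with a log2FC of 0.58 (FDR = 0.310) in Epi 8 and 0.96 (SE 0.302, FDR = 0.683) in Epi 10. BBX22 had 40.8, 42.1 and 41.5 CPM in Epi 8, 37.5, 39.5 and 38.0 CPM in Epi 10 and 51.3, 42.5 and 42.6 CPM in WT. Epi 8 and Epi 10 both lay below WT, by log2FC of -0.14 (FDR = 0.407) and -0.25 (FDR = 0.683), sizes under the fold limit. BBX21 was above WT in every Epi 8 plant (34.1 to 39.6 CPM against 29.5 to 33.9 CPM in WT; log2FC 0.24, FDR = 0.266).

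In Epi 8 leaf against WT, 3 members had groups without overlap beside 25.7% of genes, and 0.953% of genes but 0 members were called. In Epi 10 against WT, 2 members lacked overlap beside 13.8% of genes, 0% were called, and 1 member (BBX20) passed unadjusted with the fold limit beside 2.25%. In Epi 8 against Epi 10, BBX22 alone lacked overlap, with Epi 8 above, beside 13.7% of genes, and 0% were called. The medians of the 9 members were 0.169, 0.049 and 0.112 in these comparisons. In Epi 8 leaf against WT, the remaining members had a log2FC of 0.36 for BBX19, 0.28 for BBX29, 0.17 for BBX18, 0.11 for BBX24, 0.02 for BBX25 and -0.23 for BBX28. In Epi 10 against WT they had 0.27 for BBX19, 0.12 for BBX25, 0.06 for BBX21, 0.05 for BBX18, -0.001 for BBX29, -0.05 for BBX24 and -0.11 for BBX28. In Epi 8 against Epi 10 the values were 0.28 for BBX29, 0.19 for BBX21, 0.16 for BBX24, 0.12 for BBX18, 0.11 for BBX22, 0.09 for BBX19, -0.09 for BBX25, -0.12 for BBX28 and -0.38 for BBX20.

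**Figure D4:**
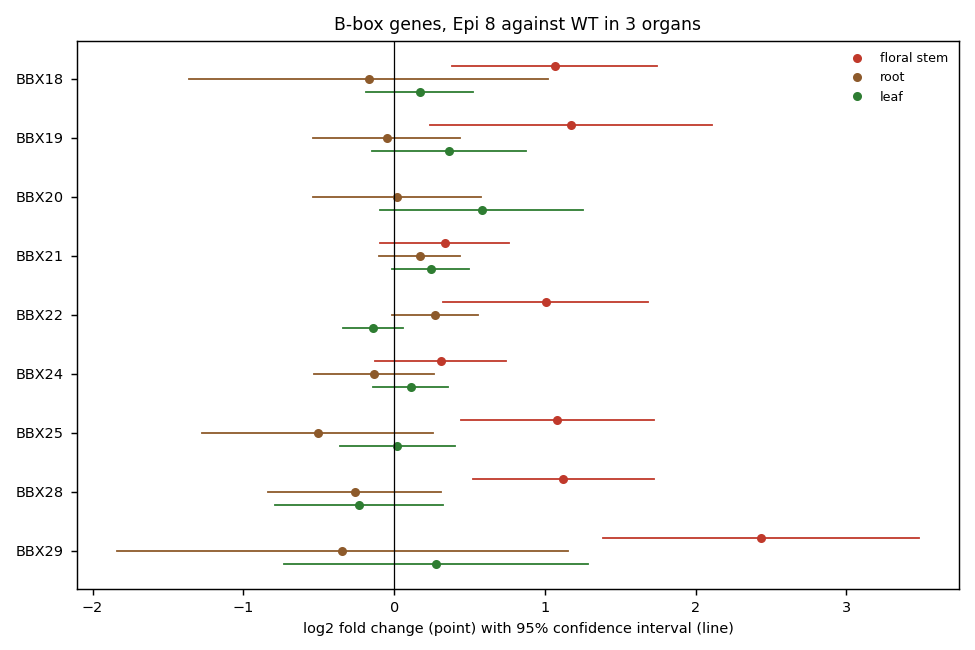
Log2 fold change of Epi 8 over WT (points) with 95% confidence intervals (lines) in floral stem, root and leaf for the 9 B-box genes tested in at least 1 organ. BBX18, BBX19, BBX22, BBX25, BBX28 and BBX29 have stem intervals above 0, and all root and leaf intervals span 0.

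Whether the Epi 8 effect differed between organs was tested as the difference between its log2FC values over the 27 libraries. From root to floral stem, no member was called in edgeR (0.316% of 22442 genes were), and the smallest FDR was 0.0833 for BBX25 (difference 1.56, SE 0.39). BBX29 differed by 2.75 (FDR = 0.154), BBX28 by 1.35 (FDR = 0.162), BBX18 by 1.2, BBX19 by 1.19 and BBX22 by 0.69, each larger in stem. Without adjustment these 6 passed (BBX20 at 0.94, BBX24 at 0.41 and BBX21 at 0.13 did not), beside 9.4% of genes, and DESeq2 called BBX25 (adjusted p = 0.0116) and BBX29 (0.0357) beside 1.63%. In leaf relative to stem, 0 members were called (0.29% of genes), and BBX22 had the smallest FDR (0.108, with a difference of -1.12 and SE 0.295). Its effect was above 0 in stem and slightly below 0 in leaf, there under the fold limit. BBX29 differed by -2.14, BBX28 by -1.33 and BBX25 by -1.04. Without adjustment these 4 passed (BBX18 at -0.88, BBX19 at -0.79, BBX20 at -0.40, BBX24 at -0.18 and BBX21 at -0.07 did not) beside 11%, and DESeq2 called BBX22 (0.022) and BBX28 (0.0498) beside 1.76%. In leaf relative to root the differences were -0.43 for BBX22, 0.01 for BBX28, 0.05 for BBX21, 0.23 for BBX24, 0.32 for BBX18, 0.39 for BBX19, 0.51 for BBX25, 0.54 for BBX20 and 0.61 for BBX29, with 0 members and 0% of genes called by edgeR and 0 members at an unadjusted p or by DESeq2. The Epi 24 effect in stem minus that in root also gave 0 members and 0% of genes called, with 0 members at an unadjusted p or by DESeq2. For both of these differences the unadjusted and DESeq2 counts stand without the share of all genes. The Epi 24 values were 0.79 for BBX28, 0.72 for BBX20, 0.65 for BBX18, 0.36 for BBX22, 0.23 for BBX19, 0.17 for BBX24, 0.04 for BBX21, -0.17 for BBX25 and -0.44 for BBX29. The value of BBX20 rests on 0, 5 and 4 reads in Epi 24 stems and 0, 6 and 0 in WT stems. With a plant left out it lay between 0.126 and 5.789. The differences of the Epi 8 effect share the WT and Epi 8 libraries of an organ. The members were chosen with the Epi 8 differences in stem known. Differences of effects that include the Epi 8 stem plants therefore describe the chosen genes and are no independent support.

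Other genes of the pathway were taken from lists on light signalling, HY5 targets, the clock and the other B-box genes. In Epi 8 stem against WT none of them was called either. BBX32, which has a B-box and restrains the light response, had 13.6, 6.23 and 4.02 CPM in Epi 8 stems against 1.49, 1.36 and 1.09 CPM in WT stems (log2FC 2.61, FDR = 0.109), without overlap. BBX17 lay on the other side of 0, with 1.84, 4.19 and 6.75 CPM in Epi 8 stems against 19.7, 15.5 and 20.4 CPM in WT stems (log2FC -2.11, FDR = 0.152). Of the 18 other B-box genes tested in stem, 8 had a log2FC above 0 and 10 below, with a median of -0.113. Among 18 light-signalling genes, the growth-promoting factor PIF7 had a log2FC of 2.00 (FDR = 0.0699) and the blue-light receptor CRY2 one of -0.84 (FDR = 0.162), and 11 of the 18 lay above 0 with a median of 0.17. Among HY5 targets, 10 were tested, 2 above 0 and 8 below with a median of -0.575, and MYB75, an activator of anthocyanin genes, had 1.72 (FDR = 0.579) and CHI, a flavonoid enzyme, -0.87 (FDR = 0.613). In the other line comparisons none of the genes on these lists was called. Between WT root and WT stem, 1 of 19 other B-box genes was called higher and 14 lower, beside 60.9% of all genes called. There 3 were called higher and 12 lower among 18 light-signalling genes, and 4 higher and 3 lower among 12 HY5 targets. Between WT leaf and WT stem the same lists had 4 called higher and 9 lower, 9 higher and 3 lower, and 3 higher and 6 lower, beside 60.3%. Between WT leaf and WT root they had 15 called higher and 2 lower, 15 higher and 2 lower, and 3 higher and 8 lower, beside 68.5%. With most of all genes called, these counts are given as a description of the lists.

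Clock genes were followed in the same stem comparison, on lists chosen with earlier results of these data known. All 4 morning genes had a log2FC above 0 (median 1.33) and all 6 evening genes one below 0 (median -1.19), although none was called. LHY had 49.4, 45.2 and 56.8 CPM in Epi 8 stems against 22.5, 16 and 17.4 CPM in WT stems (log2FC 1.45, FDR = 0.068), and TOC1 had 25.3, 26.7 and 36.0 CPM against 64.0, 117 and 124 CPM in WT stems (log2FC -1.77, FDR = 0.068). Not all evening genes were set apart in this way. PRR5 overlapped, with 54.1, 23.2 and 21.5 CPM in Epi 8 stems against 29.5, 42.9 and 41.8 CPM in WT stems. ELF4 had only 9, 6 and 13 reads in Epi 8 stems against 10, 53 and 29 in WT stems. In Epi 8 root the medians were -0.65 for morning and 0.476 for evening genes. The part of the clock in the B-box values was not tested. The stem markers also varied between lines. CESA4, CESA7, CESA8 and NST1 of the secondary wall summed to between 542 and 1710 CPM in Epi 8 stems, 3730 and 4350 CPM in Epi 24 stems and 1200 and 5980 CPM in WT stems, so the sums of Epi 8 plants overlapped those of WT plants and lay below those of Epi 24 plants. Against WT the 4 markers had a median log2FC of -1.37, and 3 of them (CESA4, CESA7 and CESA8) had an unadjusted p under 0.05 but were not called (smallest FDR 0.481). Against Epi 24 the median was -1.705, with the same 3 at an unadjusted p under 0.05 (smallest FDR 0.224). CESA4 had 750, 178 and 439 CPM in Epi 8 stems, 1630, 1660 and 1980 CPM in Epi 24 stems and 491, 888 and 2580 CPM in WT stems. The part of tissue makeup in the B-box values was not tested.

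**Figure D5:**
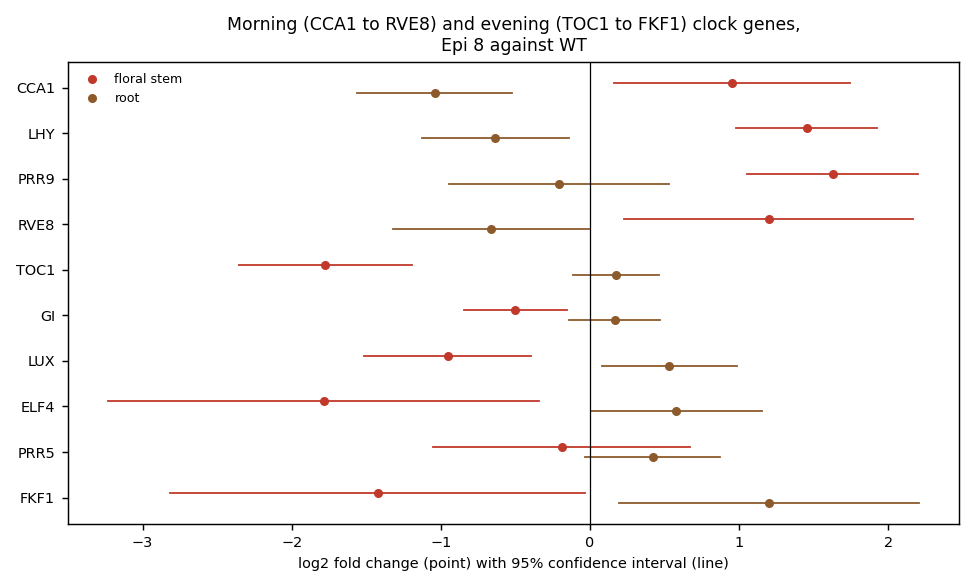
Log2 fold change of Epi 8 over WT (points) with 95% confidence intervals (lines) for 4 morning and 6 evening clock genes in floral stem and root. In stem all 4 morning genes lie above 0 and all 6 evening genes below, and in root the morning genes lie below and the evening genes above.

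Across the 9 group means of log2(CPM + 0.1), the 8 members tested in every organ were compared with each other. BBX25, BBX28 and BBX29 correlated at r = 0.934 to 0.941 with each other, and BBX18 with BBX24 at r = 0.945, while BBX21 ran opposite to BBX24 (r = -0.972). The pairs named are those with the largest absolute r. Others lay near 0, such as BBX19 with BBX24 (r = -0.098) and BBX21 with BBX22 (r = 0.08). All these values come from 9 group means of the same libraries, which span the organs, and are a description. Correlation within an organ was not tested. Searching 22433 other genes, the closest pattern to BBX25 was AT3G12320 (r = 0.995), to BBX28 RAP2.2 (0.995), to BBX29 AT3G49720 (0.980), to BBX18 HSFA3 (0.997), to BBX24 SLP1 (0.998), to BBX21 AT1G53340 (0.999), to BBX19 AT1G08477 (0.993) and to BBX22 AT5G50890 (0.884). Each is the highest of 22433 values over only 9 group means, so the search itself favours a high r. A link between these genes was not tested.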

How the data were processed

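Counts per gene for 27 libraries were used as deposited. The authors used TrimGalore for trimming, STAR 2.7.3a for alignment to TAIR10 with unique alignments kept, and QoRTs for filtering by mapping quality, and deposited raw counts without normalization. Reads outside genes (0.681 to 6.17%) and ambiguous reads (0.254 to 0.987%) were left out. Line, organ and plant number came from the sample labels. The labels do not say that plants were grown in separate batches, so p-values measure the spread between these plants. The limit set by 3 counts covers counting error only.

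Here counts were fitted with edgeR 4.0.16 in R 4.3.3 (filterByExpr, TMM, quasi-likelihood test), 9 libraries per organ for line comparisons and all 27 for organ comparisons and differences of effects. The main alternative test was DESeq2 1.42.0. Other settings were RLE scaling, no filter on low counts, plant number as a block, only the 6 libraries compared, and each plant left out in turn. Scripts were tested on simulated data. The promoter search used Python 3.11.15. Of the 33977 genes, 32548 matched the annotation, and 1873 of 1873 coordinates compared with the study's own gene list were equal, so the builds share coordinates.

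The 10 members, the gene lists and the tests were chosen with earlier results of these data known. The naming rule was all 10 members in each comparison and, of the other lists, called genes or else the 2 with the lowest unadjusted p. Members are given wherever they were tested. Of the other lists, genes are named for Epi 8 against WT in stem and for called differences of effects, clock genes also elsewhere, and the rest are given as counts, which departs from the rule. Between plants of the same group, counts differed by more than sampling noise. Same-numbered plants did not pair: in no comparison was every correlation of same-numbered plants over 0.1, so plants were treated as unpaired.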

Additional observations from a re-analysis of the deposited data

Results flagged for a closer look

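For some genes of the comparison lists, the difference of the Epi 8 effect between organs was itself called. In floral stem minus root it was -1.814 for BBX7 (FDR = 0.0454), -0.859 for CRY2 (FDR = 0.0331), 1.959 for CCA1 (FDR = 0.0329), 2.053 for LHY (FDR = 0.00183), -1.989 for TOC1 (FDR = 0.000375) and -1.524 for LUX (FDR = 0.0349), in edgeR's quasi-likelihood test, beside 0.316% of 22442 genes called. In leaf minus floral stem it was 0.944 for CRY2 (FDR = 0.0176) and 1.986 for TOC1 (FDR = 0.000512), beside 0.29% of genes. The lists were chosen with earlier results of these data known, and both differences use the same Epi 8 stem plants. They are therefore no independent support, and values with a plant left out are not given for these genes. Among the members, BBX22 had every Epi 8 stem plant above WT and every Epi 8 leaf plant below WT, and its difference of leaf minus floral stem was -1.121 (edgeR, FDR = 0.108). The gap in leaf was narrow, with 42.1 CPM in Epi 8 plant 2 and 42.5 CPM in WT plant 2. With a plant left out, the leaf log2FC lay between -0.187 and -0.042, under the fold limit, so a decrease in leaf is not established.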

How the results depend on the processing

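The count of members called kept its value under RLE scaling, no filter on low counts, no fold limit, the fit of only the 6 libraries compared and the plant number as a block. Same-numbered plants were correlated at -0.221 to 0.16 in their deviations from group means, in no comparison did every plant correlate best with its own number, and with the replicate block the number of members called stayed at 0 for Epi 8 against WT in stem, at 7 for WT root against stem and at 6 for the other WT organ comparisons. RLE scaling moved the median log2FC of all genes from -0.083 to 0.032 for WT root against stem and from -0.051 to -0.165 for WT leaf against root, and organ differences are relative to those shifts. Without adjustment of p, the members passing were 6 for Epi 8 against WT and 5 for Epi 8 against Epi 24 in stem, 1 for Epi 24 against WT and 1 for Epi 8 against Epi 24 in root, 1 for Epi 10 against WT in leaf, 6 for the Epi 8 effect in stem minus root and 4 for leaf minus stem. DESeq2 called 3, 1, 2 and 2 members for Epi 8 against WT in stem, Epi 8 against Epi 24 in stem, the Epi 8 effect in stem minus root and that in leaf minus stem. The cause of these differences between tools was not tested. Members with a log2FC near 0 changed sign under other settings. BBX20 in Epi 8 against WT root was -0.007 with the replicate block. BBX29 in Epi 10 against WT leaf was 0.007 with RLE scaling, 0.009 with no filter, 0.007 in DESeq2 and 0.006 in the fit of 6 libraries. BBX25 in WT leaf against root was -0.064 with RLE scaling, -0.031 with no filter and -0.064 in DESeq2. The Epi 8 effect on BBX28 in leaf minus root was -0.006 with no filter and -0.012 with the replicate block.

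With each plant left out in turn, the count of members called did not leave 0 in any line comparison or difference of effects, and it was 7 for WT root against stem, 4 to 6 for WT leaf against stem and 6 for WT leaf against root. The shares of all genes called in these fits are not given, so neither these counts nor their changes are a property of the B-box genes. The log2FC of these members changed sign for at least 1 plant left out, and each is given with its lowest and highest value. Epi 24 against WT in floral stem gave BBX25 between -0.093 and 0.304, BBX19 between -0.156 and 0.395, BBX29 between -0.343 and 0.476. Epi 24 against WT in root gave BBX24 between -0.239 and 0.185, BBX19 between -0.186 and 0.172, BBX20 between -0.538 and 0.015. Epi 8 against Epi 24 in root gave BBX21 between -0.054 and 0.098, BBX18 between -0.363 and 0.635, BBX19 between -0.155 and 0.112, BBX20 between -0.005 and 0.556. Epi 8 against WT in root gave BBX24 between -0.332 and 0.092, BBX18 between -0.829 and 0.099, BBX19 between -0.226 and 0.195, BBX20 between -0.153 and 0.172, BBX29 between -1.149 and 0.42. Epi 10 against WT in leaf gave BBX24 between -0.121 and 0.053, BBX21 between -0.06 and 0.139, BBX18 between -0.031 and 0.179, BBX28 between -0.317 and 0.094, BBX29 between -0.574 and 0.359. Epi 8 against Epi 10 in leaf gave BBX28 between -0.327 and 0.084, BBX19 between -0.096 and 0.208, BBX29 between -0.048 and 0.852. Epi 8 against WT in leaf gave BBX25 between -0.072 and 0.105. Epi 8 effect in leaf minus in root gave BBX21 between -0.007 and 0.118, BBX28 between -0.235 and 0.208, BBX29 between -0.164 and 1.419. Epi 8 effect in leaf minus in floral stem gave BBX21 between -0.314 and 0.054, BBX20 between -5.47 and 1.637. WT leaf against WT floral stem gave BBX21 between -0.008 and 0.361. WT leaf against WT root gave BBX25 between -0.196 and 0.247, BBX29 between -0.996 and 0.137. Epi 24 effect in floral stem minus in root gave BBX24 between -0.057 and 0.372, BBX21 between -0.091 and 0.278, BBX22 between -0.048 and 0.566, BBX25 between -0.447 and 0.079, BBX19 between -0.071 and 0.475. Epi 8 effect in floral stem minus in root gave BBX20 between -1.092 and 6.014. 

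At the depth of the stem and root libraries, BBX20 had too few counts for the line comparisons in stem, though it entered the fits over 27 libraries. BBX23 had too few to pass the filter on low counts in any of the main fits.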
